A study of Mus musculus with 31 samples.

Results

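The genes described here encode actin and the small proteins that bind its monomers or filaments in dendritic spines. They are 10 mouse genes chosen by symbol: the cytoplasmic actins Actb and Actg1, the thymosins Tmsb4x and Tmsb10, the profilins Pfn1 and Pfn2, the cofilins Cfl1 and Cfl2 with destrin (Dstn), and the cofilin kinase Limk1. They are 10 of the 48709 genes in the count files, and all 10 were among the 17428 genes that passed the filter on low counts and were tested.

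RNA was taken from the basolateral amygdala (BLA), a brain region that takes part in emotional memory, of 31 C57BL/6N mice, and was sequenced from the 3′ end of polyadenylated transcripts. CYFIP1 OE mice carry the human CYFIP1 gene on a bacterial artificial chromosome placed by pronuclear injection, and WT mice are littermates without it. CYFIP1 is a subunit of the WAVE regulatory complex, which starts branched actin filaments through Arp2/3, and it also takes part in holding back translation. The comparison asks how raised CYFIP1 changes transcription in this region.

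There were 16 WT and 15 CYFIP1 OE mice from a pair of transgenic lines, labelled 1 and 3, which had been kept for their high expression of the human gene. Line 1 had 8 WT mice aged 59 to 61 days and 7 CYFIP1 OE mice aged 59 to 77 days, of which 4 were 77 days old. Line 3 had 8 WT mice aged 58 to 60 days and 8 CYFIP1 OE mice aged 58 to 64 days. The WT mice were 8 males and 8 females, and the CYFIP1 OE mice were 7 males and 8 females. The mice of 77 days were all CYFIP1 OE mice of line 1, so age and genotype partly overlap in that line. The first part of a mouse's name, its name prefix, overlaps with genotype there almost wholly. Only CYFIP1 OE replicate 1 and WT replicate 8 of line 1 shared a prefix across genotypes. Genotype differences within line 1, and between the lines, therefore cannot be told apart from differences between prefixes. Each library held the pooled left and right tissue punches of 1 mouse.

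Actin exists as monomers and as filaments, and a spine changes its shape as filaments grow, branch and are taken apart. Thymosins hold monomers in reserve, and profilins load monomers with ATP and pass them to growing filament ends. Cofilins and destrin bind older filaments, cut them and speed the loss of monomers, and LIMK1 switches cofilin off by phosphorylating it. Beta-actin and gamma-actin, the products of Actb and Actg1, are almost the same protein, while their genes have drifted apart mostly at silent positions.

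The first 60 coding bases of both actin genes are shown as an example of how their coding sequences differ. The libraries were sequenced from the 3′ end, so this stretch does not show whether their reads can be told apart. Capitals mark the 9 bases that differ in this stretch. Not all of these are silent, since some change the amino acid, as where gat or gac in Actb is gaa in Actg1. Over all 1128 coding bases 128 differed, an identity of 88.7%.
Actb: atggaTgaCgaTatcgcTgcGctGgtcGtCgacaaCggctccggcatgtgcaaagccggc
Actg1: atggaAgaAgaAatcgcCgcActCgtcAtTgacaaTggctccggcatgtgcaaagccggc

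The whole coding sequences of Tmsb10, of its near copy Gm9844 and of Tmsb4x are shown because the level assigned to Tmsb10 turned on how reads were divided with Gm9844. Capitals in Gm9844 and Tmsb4x mark bases that differ from Tmsb10. Of the 135 coding bases Gm9844 differed from Tmsb10 at 2, an identity of 98.5%, and Tmsb4x differed at 40, an identity of 70.4%.
Tmsb10: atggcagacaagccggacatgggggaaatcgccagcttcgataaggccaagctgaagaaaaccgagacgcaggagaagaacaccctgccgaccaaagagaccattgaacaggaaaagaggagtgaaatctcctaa
Gm9844: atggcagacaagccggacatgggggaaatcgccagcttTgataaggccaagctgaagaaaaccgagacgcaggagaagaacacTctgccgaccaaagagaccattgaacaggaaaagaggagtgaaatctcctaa
Tmsb4x: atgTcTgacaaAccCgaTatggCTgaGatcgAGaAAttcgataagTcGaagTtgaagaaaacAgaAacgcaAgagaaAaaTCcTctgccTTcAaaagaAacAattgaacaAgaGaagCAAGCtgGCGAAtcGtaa

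The coding sequences of the other paralogs were further apart. Cfl1 and Cfl2 shared 71.5% of 501 bases, and Pfn1 and Pfn2 shared 61.5% of 423 bases. All coding sequences are those of the GENCODE annotation of GRCm38.

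In the promoter sequences of RefSeq (GRCm38.p6), 9 of the 10 genes had an entry. Actb had none and was not searched. The 250 bases before each start were searched on both strands. The motifs were the GC box (GGGCGG), the CCAAT box (CCAAT), the TATA box (TATAAA) and the CArG box. The last is the site read by SRF, a transcription factor whose cofactors sense actin. Actg1 was the only one of the 9 genes searched with a CArG box, which 1.47% of 32841 promoter windows held. Its sequence is shown for that box. It lies at chr11:120348543-120348645 on the minus strand, from 150 to 48 bases before the start, and capitals mark the GC boxes, the CCAAT box and the CArG box.
Actg1 upstream: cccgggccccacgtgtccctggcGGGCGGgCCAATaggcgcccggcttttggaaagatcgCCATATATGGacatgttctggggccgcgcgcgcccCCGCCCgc

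The 9 genes had 12 windows, since some had more than 1 start. A GC box was found for 8 of the 9 genes, in 10 of the 12 windows, against 32.7% of all windows. A CCAAT box was found for 4 of the 9, in 5 of the 12 windows, against 33.9%. None of the 9 had the TATA box, which 12.4% of windows held. These matches describe letters in a window and were not tested as sites.

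The read totals of the libraries ran from 5286708 to 8685308, with a median of 7387585. Levels are given as CPM, read counts set to a common library size after scaling of the totals by the TMM method. A 3′ library gives about 1 read per captured transcript, so levels of different genes were compared without a length correction. As a check of the tissue, all 6 listed markers of BLA principal neurons passed the filter on low counts, and their summed level ran from 262 to 737 CPM. Markers of striatum, a neighbouring region, ran from 170 to 3888 CPM in sum with Drd2 below the filter. Markers of choroid plexus and ependyma ran from 23.7 to 8430 CPM with Kcnj13 below it. Over all mice the median sum was 1830 CPM for striatum and 350 CPM for BLA principal neurons. How much of each punch came from around the BLA was not tested. The mouse Cyfip1 gene stood at 33.5 ± 4.48 CPM (SD, n = 16) in WT and 33.0 ± 3.66 CPM (SD, n = 15) in CYFIP1 OE mice. That value does not check the labels, since the transgene is the human gene.

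Of the 31 libraries 1 stood apart, that of CYFIP1 OE line 3 replicate 1, a male of 60 days. Its connectivity Z-score, a measure of how well a library correlates with the rest, was -4.74, against -1.18 for the next lowest, and the authors' methods leave out libraries below -2. Its most abundant gene took 19.13% of the reads, against 9.99% to 15.39% in the other mice. For 29.6% of the 17428 genes tested, its level lay outside the range of the other 30 mice. It is called the low-connectivity mouse here, it was kept in the main fit, and the values that it moves most are given with and without it.

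The actins were the most abundant of the 10 genes, followed by Tmsb4x, and Pfn1 and Limk1 were the least abundant. Actb (chr5:142903115-142906754, minus strand) had a mean of 1860 ± 378 CPM (SD, n = 31) and ranked 21st of all genes by mean level. Actg1 (chr11:120345690-120348542, minus strand) followed with 977 ± 155 CPM. Actb was above Actg1 in 31 of 31 mice, and this was the only step in the order at which the ranges of neighbours did not overlap. With the low-connectivity mouse left out, the ratio of Actb to Actg1 ran from 1.24 to 2.68, with a median of 1.82.

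Tmsb4x (chrX:167207093-167209315, minus strand), the main thymosin of brain, stood at 834 ± 197 CPM and was below Actg1 in 27 of 31 mice. Pfn2 (chr3:57841895-57848079, minus strand), the profilin of neurons, stood at 385 ± 85.4 CPM and was below Tmsb4x in 31 of 31. Cfl1 (chr19:5490455-5495201, plus strand), the main cofilin of brain, stood at 263 ± 49.2 CPM and was below Pfn2 in 29 of 31. Each of these 3 neighbours differed in level in most mice, although their ranges overlapped.

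Dstn (chr2:143915320-143943324, plus strand) stood at 110 ± 30.6 CPM, below Cfl1 in 31 of 31 mice. Tmsb10 (chr6:72957347-72958748, minus strand) stood at 85.8 ± 20.7 CPM as deposited and was below Dstn in 23 of 31. Cfl2 (chr12:54858809-54862877, minus strand), the cofilin best known from muscle, stood at 30.8 ± 5.32 CPM and was below Tmsb10 in 30 of 31. Dstn and Tmsb10 were thus the neighbours least clearly ordered among the more abundant genes.

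Limk1 (chr5:134656039-134688598, minus strand) had 14.5 ± 3.74 CPM, below Cfl2 in 31 of 31 mice. Pfn1 (chr11:70651850-70654644, minus strand), the profilin of most other tissues, had 11.3 ± 3.24 CPM and was below Limk1 in 23 of 31. Within the profilins the median ratio of Pfn2 to Pfn1 was 32.56, and within the cofilins the median ratio of Cfl1 to Cfl2 was 8.67.

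**Figure D1:**
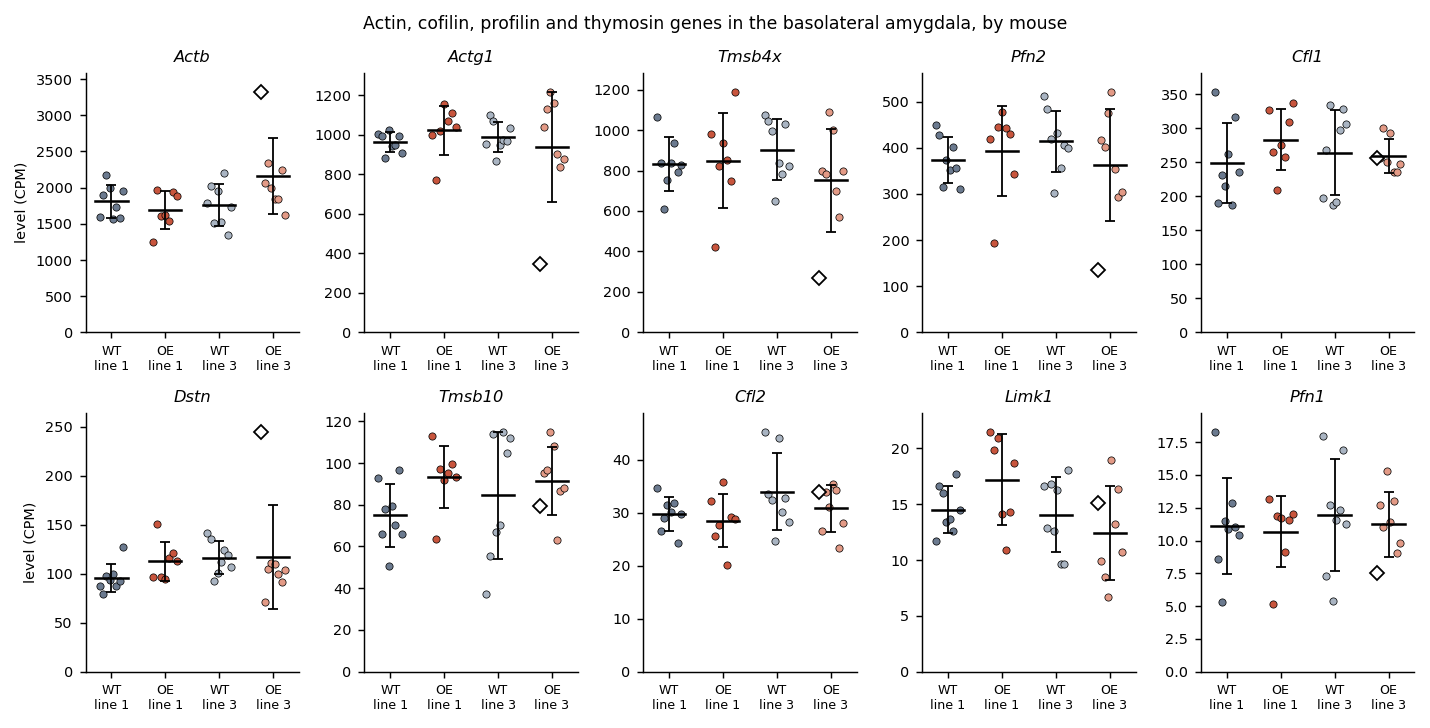
Levels of the 10 genes in each mouse, in TMM-scaled CPM, by genotype and line, with 1 point per mouse and bars for the mean and SD of each group. The white diamond is the low-connectivity mouse, which lay above all others for Actb (3316 CPM) and Dstn (245 CPM) and below all others for Actg1 (344 CPM), Pfn2 (135 CPM) and Tmsb4x (268 CPM).

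The spread between mice was larger than counting alone gives for every one of the 10 genes. The median read number ran from 82 for Pfn1 to 13273 for Actb. Counting error at those depths is a coefficient of variation of 0.9% for Actb, 9.8% for Limk1 and 11% for Pfn1. The observed coefficients over 31 mice ran from 15.9% for Actg1 to 28.8% for Pfn1. In the other 30 mice they were 10.3% for Actg1 and 28.3% for Pfn1, and that of Dstn was 17.0% in place of 27.7%. These figures cover counting error only.

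Tmsb10 and Gm9844 were counted together as 1 pool of reads that was then divided. Gm9844, annotated as protein coding (chr7:24862213-24862697, plus strand), has a transcript 99.1% identical to Tmsb10 over 466 bases, and it had been given 17588.6 reads over all mice, 90.4% of the number given to Tmsb10. The counts of both genes had decimals in 31 of 31 mice, and their sum was a whole number, within 0.002, in 31 of 31. Neither gene's own count can therefore be read as its own transcript level.

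The share of the pool given to Tmsb10 ran from 35.4% to 64.0% in 30 mice, with a median of 52.5%. In the low-connectivity mouse it was 100%, with Gm9844 at 0.04 reads. Summed over both genes, the level was 162 ± 36.0 CPM (SD, n = 31), which would place thymosin beta-10 sixth in the order, above Dstn. The sum was 79.4 CPM in the low-connectivity mouse and ran from 88.1 to 220 CPM in the others, so by the sum that mouse was lowest, while by Tmsb10 alone it lay inside their range.

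**Figure D2:**
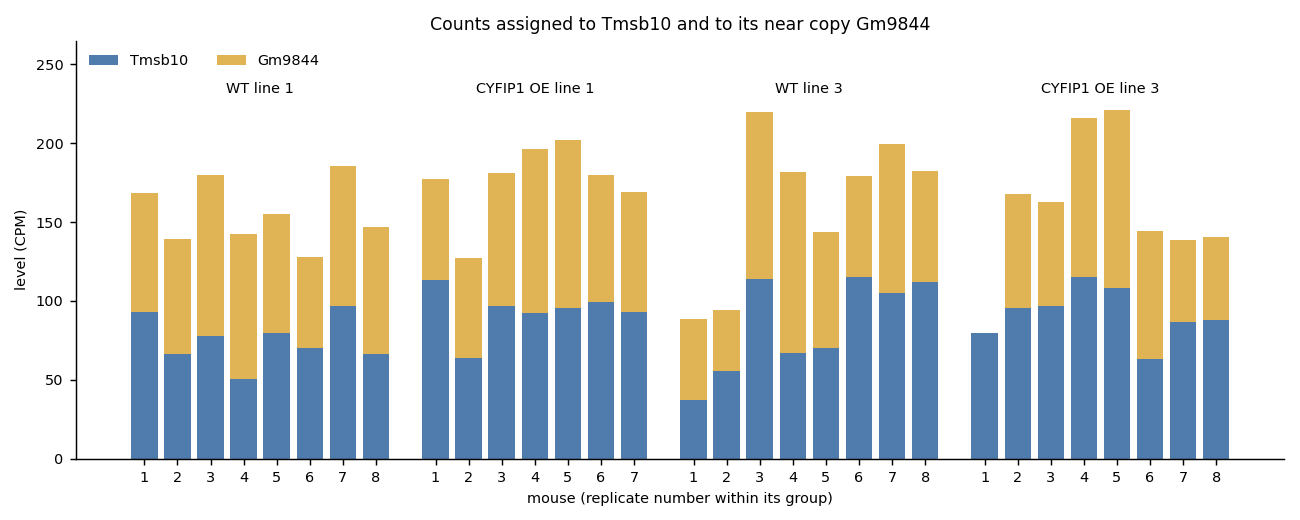
Reads assigned to Tmsb10 (blue) and to its near copy Gm9844 (yellow), in CPM, stacked in 1 bar per mouse and grouped by genotype and line. In CYFIP1 OE line 3 replicate 1, the low-connectivity mouse, Gm9844 was at 0 CPM and the sum was 79.4 CPM, below the 88.1 to 220 CPM of the other 30 mice.

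For the other genes, the close copies found by sequence held fewer reads relative to the gene. Actg1 had 8 processed pseudogenes with over 95% identity over at least 100 bases, which together held 0.00752% of its own read number. For Actb the nearest were the coding gene Lrrc58, 96.2% identical over 392 bases with 4.88% of the read number of Actb, and 3 processed pseudogenes. For Cfl1 they were Arcn1, 95.7% identical over 140 bases with 11%, Snx32, which overlaps it on the opposite strand and had 5.82%, and the pseudogene Gm6180 with no reads. Limk1 overlaps the antisense gene Gm10369, which had 0.659% of its read number. How the counting treated strand is not given in the sources used here. Cfl2, Pfn1, Pfn2, Tmsb4x, Dstn and Limk1 had no such copy. Counts still had decimals in 29 of 31 mice for Pfn2, 26 for Tmsb4x, 25 for Pfn1 and 24 for Limk1. They had decimals in 30 mice for Actb, in 31 for Actg1 and for Cfl1, in 4 for Dstn and in 2 for Cfl2. Which transcripts shared those reads was not tested.

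Raised CYFIP1 went with no called change in any of the 10 genes. In edgeR's quasi-likelihood test with sex and line as covariates, 0 of 10 genes passed an adjusted p under 0.05, and 0 of the 17428 genes tested did (0%). At an unadjusted p under 0.05, 0 of 10 passed, where 4.3% of all genes did, and at an unadjusted p under 0.005, the threshold the authors used, 0 of 10 passed, where 0.293% did. DESeq2 also called 0 of 10, and 0 of all genes. At an unadjusted p under 0.05 it had 0 of 10, where 814 of 17404 genes passed. The estimates were above 0 for 5 genes and below 0 for 5, with a median of 0.010 on the log2 scale against -0.005 over all genes. In tissue RNA, fewer cells of a type and less RNA per cell cannot be told apart.

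Neither actin was called for genotype. In WT mice Actb ran from 1352 to 2197 CPM with a median of 1758, and in CYFIP1 OE mice from 1243 to 3316 with a median of 1882. The ranges overlapped, and 11 of 15 CYFIP1 OE mice lay inside the WT range. The log2 fold change was 0.10 ± 0.099 (SE), with adjusted p = 0.999 by edgeR, and without the low-connectivity mouse it was 0.038 ± 0.085. With the name prefix of the mice, a set of mice that share the first part of their name, as a block it was 0.25 (adjusted p = 0.906). That fit compares genotypes only within the 5 of 9 prefixes that hold both. Of line 1, only CYFIP1 OE replicate 1 and WT replicate 8 are in such prefixes. The blocked estimate therefore comes mostly from the other line and does not check the estimate over both lines.

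Actg1 was the steadiest of the genes in WT mice, from 867 to 1100 CPM with a median of 970, a coefficient of variation of 6.5%. In CYFIP1 OE mice it ran from 344 to 1215 CPM with a median of 1039 and a coefficient of 22.2%, or 13% without the low-connectivity mouse, and 7 of 15 lay inside the WT range. The log2 fold change was -0.010 ± 0.101 (SE), adjusted p = 0.999 by edgeR, and 0.061 ± 0.064 without the low-connectivity mouse. Its CYFIP1 OE values thus lay on both sides of the WT range. The difference in spread was not tested.

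Among the monomer-binding genes, Tmsb4x ran from 611 to 1074 CPM in WT mice with a median of 837, and from 268 to 1186 in CYFIP1 OE mice with a median of 800. The fold change was -0.14 ± 0.134 on the log2 scale (SE; edgeR adjusted p = 0.999), and -0.066 ± 0.109 without the low-connectivity mouse. Tmsb10, as deposited, ran from 37.4 to 115 CPM in WT mice with a median of 74.2, and from 62.9 to 115 in CYFIP1 OE mice with a median of 95.3. It had the largest genotype estimate of the 10 genes in this fit, 0.21 ± 0.125 (SE, n = 16 and n = 15, edgeR p = 0.0993, adjusted p = 0.999), and 12 of 15 CYFIP1 OE mice lay above the WT mean. The estimate was 0.10 with the name prefix as a block, drawn mostly from the same line as for Actb, and 0.11 with 5 surrogate variables.

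The estimate also depended on how reads had been divided with Gm9844. Summed over both genes, the WT mice ran from 88.1 to 220 CPM with a median of 162, and the CYFIP1 OE mice from 79.4 to 220 with a median of 169. The log2 fold change of the sum was 0.064 ± 0.122 (SE, n = 16 and n = 15, edgeR p = 0.605, adjusted p = 0.999), with a 95% interval of -0.184 to 0.311. It was 0.12 (adjusted p = 1) when the low-connectivity mouse, in which Gm9844 was at 0, was left out. Gm9844 alone was at -0.099 ± 0.267.

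Pfn2 ran from 301 to 512 CPM in WT mice with a median of 400 and from 135 to 520 in CYFIP1 OE mice with a median of 417. Its log2 fold change was -0.070 ± 0.131 (SE; edgeR adjusted p = 0.999), and 0.005 ± 0.105 without the low-connectivity mouse. Pfn1 ran from 5.31 to 18.3 CPM in WT and from 5.17 to 15.3 in CYFIP1 OE mice, with an estimate of -0.072 ± 0.162, or -0.035 ± 0.162 without that mouse. The groups overlapped for both profilins.

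Among the filament-cutting genes and their kinase, Cfl1 stood at 257 ± 59.3 CPM (SD, n = 16) in WT and 271 ± 36.3 (SD, n = 15) in CYFIP1 OE mice, and all 15 CYFIP1 OE mice lay inside the WT range of 187 to 353. Cfl2 stood at 31.8 ± 5.85 and 29.7 ± 4.66 CPM. Limk1 stood at 14.3 ± 2.70 and 14.7 ± 4.69 CPM, and 8 of 15 CYFIP1 OE mice lay inside the WT range. Their log2 fold changes were 0.074 ± 0.098, -0.097 ± 0.091 and 0.030 ± 0.134 (SE), each with adjusted p = 0.999 by edgeR.

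Dstn ran from 79.0 to 142 CPM in WT mice with a median of 100 and from 70.7 to 245 in CYFIP1 OE mice with a median of 105. Its genotype estimate was 0.12 ± 0.119 (SE, edgeR adjusted p = 0.999) and became -0.003 ± 0.089 without the low-connectivity mouse, the 1 value above 151 CPM. The widest 95% interval of the 10 genotype estimates was that of Pfn1, a fold of 0.757 to 1.196, and the narrowest was that of Cfl2, 0.823 to 1.063.

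**Figure D3:**
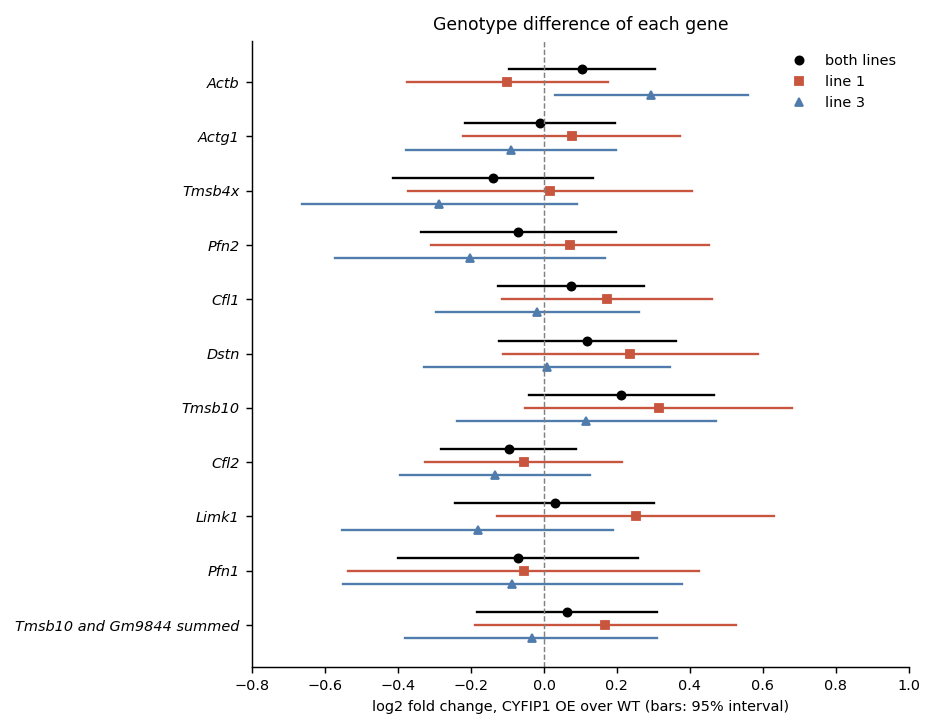
Log2 fold change of CYFIP1 OE over WT for each gene from edgeR, over both lines (black circles) and within line 1 (red squares) and line 3 (blue triangles), with 95% intervals. Of the estimates drawn, Actb in line 3 (0.29) was the one whose interval did not cross 0.

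The genotype difference was compared between lines because each line is its own insertion. Of the 10 genes, 0 passed an adjusted p under 0.05 for the genotype by line interaction in edgeR, as did 0% of all genes. DESeq2 called 0 of 10, and 2 among all genes. At an unadjusted p under 0.05 there was 1 gene of 10, Actb, where 8.1% of all genes passed, a share near the background. With age as a covariate there were 0 of 10, where 986 of 17428 genes passed. Without the mice aged 77 days there were also 0 of 10, where 940 of 17524 genes passed. The interaction was above 0 for Actb and below 0 for the other 9, with a median of -0.195 against -0.014 over all genes. Over 30 mice, with the low-connectivity mouse left out, it was above 0 for 2 genes and below 0 for 8, with a median of -0.149 against -0.021.

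For Actb the WT and CYFIP1 OE mice of line 1 ran from 1560 to 2180 CPM (median 1817) and from 1243 to 1963 (median 1625). In line 3 they ran from 1352 to 2197 (median 1757) and from 1627 to 3316 (median 2031). In line 1, 3 of 7 CYFIP1 OE mice lay above the WT mean, and in line 3, 7 of 8. The log2 fold change was -0.10 ± 0.135 in line 1 and 0.29 ± 0.130 in line 3 (SE, fit over n = 31 mice, edgeR p = 0.0304 and adjusted p = 0.584 for line 3), where 3.96% and 7.93% of all genes passed an unadjusted p under 0.05 in the respective line. The difference between the lines was 0.40 ± 0.188 (SE, n = 31 mice, edgeR p = 0.0429, adjusted p = 0.601). With age as a covariate, or without the mice aged 77 days, this difference did not pass an unadjusted p under 0.05 in edgeR. Without the low-connectivity mouse it was 0.30 ± 0.163 (n = 30 mice, p = 0.0784, adjusted p = 0.546), and the difference in line 3 was 0.19 ± 0.115 (p = 0.118).

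For Dstn the lines differed more when that mouse was left out. With it, the genotype difference was 0.24 ± 0.172 in line 1 and 0.007 ± 0.166 in line 3. The remaining mice of line 3 ran from 92.2 to 142 CPM in WT (median 115) and from 70.7 to 111 in CYFIP1 OE (median 104), and in line 1 from 79.0 to 127 in WT (median 93.5) and 95.1 to 151 in CYFIP1 OE (median 113). Without the mouse the estimates were 0.23 ± 0.114 in line 1 and -0.23 ± 0.114 in line 3, and the difference between lines was -0.46 ± 0.161 (SE, n = 30 mice, edgeR p = 0.00725, adjusted p = 0.276). Dstn was then the 1 member of 10 with an unadjusted p under 0.05, where 10.4% of all genes were.

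Lines were also compared over both genotypes. None of the 10 genes passed an adjusted p under 0.05 in edgeR or DESeq2, where 0% of all genes did in edgeR and 0 genes did in DESeq2. In edgeR 0 of 10 passed an unadjusted p under 0.05, where 3.31% of all genes did. Limk1 came nearest, with 17.2 ± 4.07 CPM (SD, n = 7) in CYFIP1 OE mice of line 1 and 12.4 ± 4.21 CPM (SD, n = 8) in those of line 3, while WT mice stood at 14.5 ± 2.07 and 14.1 ± 3.35 CPM. Its log2 difference of line 3 from line 1 was -0.26 ± 0.134 (SE, n = 31 mice, edgeR p = 0.0578, adjusted p = 1). The line difference of Tmsb10 was 0.066 ± 0.125 as deposited and -0.051 ± 0.122 for the sum with Gm9844, which became -0.005 without the low-connectivity mouse.

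Sexes were compared last. None of the 10 genes passed an adjusted p under 0.05 in edgeR or DESeq2, where 0.0631% of all genes did in edgeR and 12 genes did in DESeq2. In edgeR 0 of 10 passed an unadjusted p under 0.05, where 4.62% of all genes did. In the fit of 31 mice the largest estimates were 0.21 ± 0.134 for Limk1, 15.5 ± 3.04 CPM in 15 males against 13.5 ± 4.17 in 16 females, and -0.19 ± 0.134 for Tmsb4x, at 781 ± 211 and 883 ± 175 CPM. Without the low-connectivity mouse Tmsb4x was at -0.12, closer to 0 than Tmsb10 and Cfl1. Tmsb10 was -0.18 ± 0.125 as deposited and -0.15 ± 0.122 for the sum with Gm9844.

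The 10 genes did not all move together across mice. Over their 45 pairs, 8 had a correlation of log2 CPM with adjusted p under 0.05, or 17.8%, where 12% of all 83170 relations between a member and a gene did, so the share was not far above that background. Of the 8, 6 were positive and 2 negative. The p-values are permutation p-values from 100000 resamples, adjusted over the 83170 relations. Unless rho is named, a p-value beside a correlation is that of r.

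Actg1, Pfn2 and Tmsb4x rose and fell together. Actg1 and Pfn2 gave r = 0.88 and rho = 0.76 (permutation p = 1e-05, the smallest the resamples can give, adjusted p = 0.000992). Leaving out the 2 mice farthest from the median of Actg1 gave r = 0.76, and leaving out the low-connectivity mouse gave r = 0.81. Pfn2 and Tmsb4x gave r = 0.89 and rho = 0.69, and r = 0.66 without the 2 farthest mice. For Actg1 and Tmsb4x the values were r = 0.84, rho = 0.55 and r = 0.56. Within WT mice the 3 pairs gave 0.65, 0.83 and 0.57 in the same order, and with the mean of each set of mice that share a name prefix removed they gave 0.91, 0.95 and 0.90. Without the low-connectivity mouse the latter were 0.83, 0.88 and 0.73.

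Actb fell as Tmsb4x rose. Its correlation with Tmsb4x was r = -0.65 and rho = -0.50 (permutation p = 0.00034, adjusted p = 0.00831), and r = -0.41 without the low-connectivity mouse. With Pfn2 it was r = -0.56 and rho = -0.35 (adjusted p = 0.0309), and r = -0.27 without that mouse or without the 2 mice farthest from the median of Actb, so that relation rests on those mice. Pfn1 went with Tmsb4x (r = 0.64, rho = 0.56, adjusted p = 0.00678) and with Pfn2 (r = 0.58, rho = 0.48, adjusted p = 0.0184), and these r values were 0.70 and 0.61 without that mouse. The adjusted permutation p of rho was 0.0775 for Actb with Tmsb4x and 0.28 for Actb with Pfn2. It was 0.0382 for Pfn1 with Tmsb4x and 0.0928 for Pfn1 with Pfn2.

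Cfl1 and Tmsb10 were the other pair, with r = 0.66 and rho = 0.63 (permutation p = 0.0001, adjusted p = 0.00374) and r = 0.66 without the low-connectivity mouse. With the means of name prefixes removed it was r = 0.70. Within WT mice this pair gave r = 0.73, and within CYFIP1 OE mice r = 0.35. With reads of Gm9844 added to Tmsb10, Cfl1 gave r = 0.41 and rho = 0.45 (adjusted p = 0.114), while Actg1 gave r = 0.62 and rho = 0.56 (adjusted p = 0.017), where Actg1 and Tmsb10 alone gave r = 0.22. Leaving out the low-connectivity mouse, the sum gave r = 0.47 with Cfl1 and r = 0.41 with Actg1, and Actg1 with Tmsb10 alone gave r = 0.42. The sum and Actg1 gave r = -0.12 within WT and 0.94 within CYFIP1 OE mice, so that relation did not hold within WT mice. The sum and Dstn gave r = -0.53 and rho = -0.14 (adjusted permutation p = 0.0439 for r), and r = -0.30 without the low-connectivity mouse. The 9 relations of the sum with other members were adjusted over the 8316 genes compared with it.

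**Figure D4:**
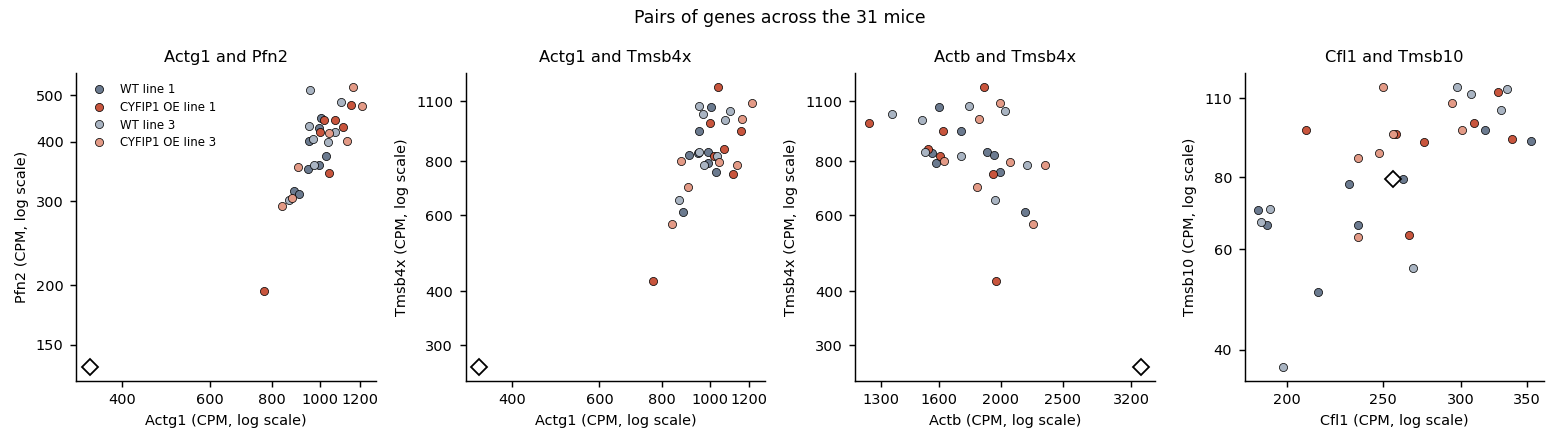
Levels of 4 pairs of genes, in CPM on log axes, with 1 point per mouse coloured by genotype and line and the low-connectivity mouse as a white diamond. Actg1 rose with Pfn2 (r = 0.88) and with Tmsb4x (r = 0.84), Actb fell as Tmsb4x rose (r = -0.65), and Cfl1 rose with Tmsb10 (r = 0.66).

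**Figure D5:**
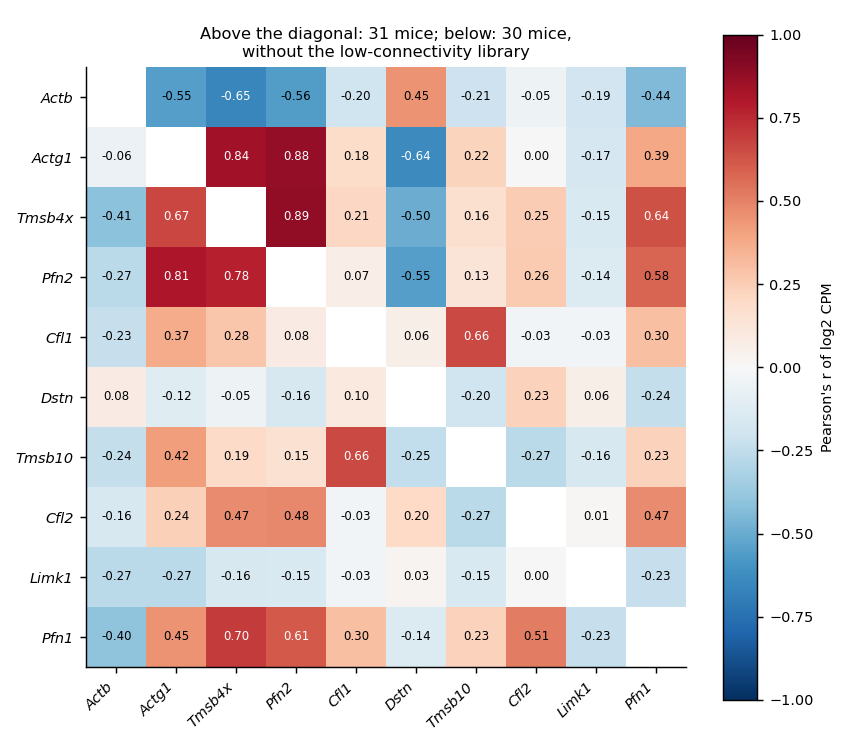
Correlations of log2 CPM between the 10 genes, over 31 mice above the diagonal and over 30 mice, without the low-connectivity mouse, below it. Actg1 and Pfn2 gave 0.88 above and 0.81 below, and Actb and Pfn2 gave -0.56 above and -0.27 below.

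The same genes varied with the share of reads on the most abundant gene of a library. Over 31 mice that share gave r = -0.72 and rho = -0.59 with Tmsb4x (permutation p = 2e-05, adjusted p = 0.00107), -0.68 with Actg1 and with Pfn2, -0.51 with Pfn1 and 0.64 with Actb. Without the low-connectivity mouse these were -0.54, -0.43, -0.47, -0.49 and 0.44. The p-values were adjusted over 58226 relations of 7 measures. The part of this share in the relations between the genes was not tested. With astrocyte markers, Pfn2 gave r = 0.56 (adjusted p = 0.0295) and Actg1 r = 0.50 (adjusted p = 0.0697). With choroid plexus and ependyma markers, Cfl2 gave r = 0.52 and rho = 0.49 (adjusted permutation p = 0.0292 for r and 0.0704 for rho). With oligodendrocyte markers, Cfl2 gave r = 0.44 and rho = 0.24 (adjusted permutation p = 0.0959 for r). Without the low-connectivity mouse both sets of markers gave r = 0.51 with Cfl2. Striatal markers gave r = -0.54 with Dstn (adjusted p = 0.0379) and r = -0.34 without the low-connectivity mouse. Other marker relations were larger without that mouse. Striatal markers and Actb gave r = 0.09 and rho = 0.52 over 31 mice, and r = 0.51 without it. Neuron markers gave r = -0.0 with Actg1 and 0.18 with Pfn2 over 31 mice, and 0.56 and 0.54 without it. No p-value was computed without that mouse.

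The genes closest to each member in log2 CPM were sought among 8317 other genes over 31 mice. For Actg1 they were Eif4a2 (r = 0.94), Gm26723 (0.93) and Vapa (0.92). For Pfn2 they were Polr1d (0.95), Cspg5 (0.95) and Tm9sf3 (0.94), and for Tmsb4x Atxn7l3b (0.91), Selenof (0.91) and Tollip (0.90). Actb was nearest to Prrt1 (0.81), Cbx6 (0.80) and Oxct1 (0.80). Without the low-connectivity mouse the values were 0.85, 0.79 and 0.72 for Actg1 and 0.73, 0.73 and 0.68 for Actb.

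For the cofilin genes, Cfl1 was nearest to Thy1 (r = 0.76), Arl1 (0.75) and Smim13 (0.72), Cfl2 to Col9a3 (0.66), Zfas1 (0.65) and Enpp2 (0.64), and Dstn to Stk39 (0.86), Brd9 (0.85) and Nfix (0.84). Pfn1 was nearest to Lgmn (0.83), Bhlhe41 (0.81) and Yipf4 (0.78), and Tmsb10 to Syt16 (0.76), Mal2 (0.73) and Gm44090 (0.72). Limk1 had the weakest nearest genes, 2700097O09Rik (0.65), Chrnb2 (0.61) and Fgf11 (0.60). Enpp2 is expressed in choroid plexus but not only there, and Lgmn encodes a lysosomal protease abundant in microglia.

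The low-connectivity mouse was the extreme of several members at once. Its Actb was 3316 CPM, against 1243 to 2344 in the other 30 mice, and its Dstn was 245 CPM, against 70.7 to 151. It had the lowest Actg1, 344 CPM against 770 to 1215, the lowest Pfn2, 135 CPM against 194 to 520, and the lowest Tmsb4x, 268 CPM against 422 to 1186. Its ratio of Actb to Actg1 was 9.63. Cfl1, Cfl2, Pfn1, Tmsb10 as deposited and Limk1 lay inside the range of the others. Its summed striatal markers were 184 CPM, against a median of 1830 over all mice, its choroid plexus and ependyma markers 4753, and its immediate early genes, at 89.1 CPM, were the lowest of any mouse. Its neuron markers, at 4475 CPM, were the highest. The part of these in its levels was not tested.

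CYFIP1 OE line 1 replicate 2, a female of 77 days, was next lowest for 3 of the same genes, with Actg1 at 770 CPM, Pfn2 at 194 CPM and Tmsb4x at 422 CPM. Its Pfn1, at 5.17 CPM, was the lowest of all mice, and its Dstn, at 151 CPM, was the highest after the low-connectivity mouse.

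The wider actin pathway was described by lists of 81 genes, of which 80 were in the files and 76 were tested. None passed an adjusted p under 0.05 for genotype. At an unadjusted p under 0.05 there were 2 genes higher and 1 lower in CYFIP1 OE mice, where 4.3% of all genes passed, and the median log2 fold change over the 76 was 0.018, against -0.005 over all genes.

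Among 18 cofilin-control genes tested, 13 estimates were above 0 and 5 below, and 2 passed an unadjusted p under 0.05, against the same 4.3%. Tesk1, a kinase that phosphorylates cofilin as LIMK1 does, stood at 11.4 ± 4.60 CPM (SD, n = 16) in WT and 17.6 ± 10.6 CPM (SD, n = 15) in CYFIP1 OE mice, with 13 of 15 above the WT mean (log2 fold change 0.59 ± 0.223, p = 0.0122 and adjusted p = 0.999 by edgeR). Cap2, a cyclase-associated protein that works with cofilin, stood at 54.1 ± 7.08 and 63.9 ± 16.8 CPM (log2 fold change 0.23 ± 0.107, n = 16 and n = 15, p = 0.0359 and adjusted p = 0.999 by edgeR). Tesk1 was highest in the low-connectivity mouse, at 53.4 CPM, and without it the estimate was 0.40 ± 0.184 (adjusted p = 0.999). The estimate of Tesk1 was 0.11 in line 1 and 1.04 in line 3, and that of Cap2 was 0.22 and 0.24.

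Of 14 genes for capping, severing and monomer binding, 3 estimates were above 0 and 11 below. Gsn, which encodes the filament-severing protein gelsolin, stood at 65.8 ± 38.5 CPM in WT and 46.3 ± 17.8 CPM in CYFIP1 OE mice, with 13 of 15 below the WT mean (log2 fold change -0.49 ± 0.231, n = 16 and n = 15, p = 0.0424 and adjusted p = 0.999 by edgeR). The estimate without the low-connectivity mouse was -0.40 ± 0.213 (n = 16 and n = 14, p = 0.0686). Gsn is also abundant in oligodendrocytes, whose markers ran from 1109 to 8887 CPM in sum over all mice; their part in this value was not tested.

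No gene of the other lists passed an unadjusted p under 0.05 for genotype. Of 14 profilin partners, Ena/VASP proteins and formins, 8 estimates were above 0 and 6 below, and the smallest p was that of the formin Fmn2 (log2 fold change -0.16 ± 0.091, n = 16 and n = 15, p = 0.0868 by edgeR). Of 25 crosslinking and filament-binding genes of spines, 17 were above 0 and 8 below, with Dbnl first (0.14 ± 0.082, n = 16 and n = 15, p = 0.0867 by edgeR). Srf stood at 121 ± 19.8 and 113 ± 21.2 CPM (-0.11 ± 0.100, or -0.050 ± 0.079 without the low-connectivity mouse). Of the muscle actins, Acta2, a marker of mural cells, stood at 3.75 ± 2.36 and 4.42 ± 3.54 CPM (0.17 ± 0.376, or 0.045 ± 0.378 without that mouse). For the interaction with line, 17 of the 76 genes passed an unadjusted p under 0.05, where 8.1% of all genes did, and none passed after adjustment.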

How the data were processed

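BLA tissue from 31 mice was sequenced as QuantSeq 3′ Fwd libraries. Per the labels and the methods, the authors aligned reads to GRCm38 with STAR, checked them with Picard and MultiQC, and counted genes with Salmon; the deposited expected counts (estimated counts, 1 table per mouse) are not whole where Salmon divided reads between similar transcripts. Counts were rounded, and a gene was tested if 20% or more of the libraries held 10 or more of its reads (17428 of 48709). Gene names came from the GENCODE annotation of GRCm38, which named 48349 of the identifiers.

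Differences were tested with edgeR 4.0.16 (TMM factors, quasi-likelihood test, R 4.3.3) with sex, line and genotype as terms, and with a genotype by line term for the interaction. p-values were adjusted by the Benjamini-Hochberg method over all genes tested, and a gene was called at an adjusted p under 0.05. The authors' sequencing components were not used here; DESeq2 1.42.0, 5 surrogate variables from sva 3.50.0 and other alternatives stand in the closing section. Log2 CPM for correlations used a prior count of 2. Near copies were found with blastn 2.17.0+ (at least 95% identity over 100 bases). Totals ran from 5286708 to 8685308 reads per mouse, and counting errors come from each gene's median read number. Lines are numbered as in the labels.

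The 10 genes and all lists were chosen with earlier results of these data known. The genes named were the 10 members, the 3 genes nearest to each in log2 CPM, annotated pseudogenes that match a member, and from each list the genes with an unadjusted p under 0.05 or, where there were none, that with the smallest p (nearest genes had a mean of at least 10 CPM and were no pseudogenes). Gm9844, Lrrc58, Arcn1, Snx32 and Gm10369 fall outside that rule and were named after their values were seen, Drd2 and Kcnj13 were named as markers below the filter, and Cyfip1 was named as the mouse counterpart of the transgene. Groups came from the labels, and no sample was left out of the main fit.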

Additional observations from a re-analysis of the deposited data

Results flagged for a closer look

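In 40 groups of 1 gene, genotype and line, each of 7 or 8 mice, 6 held a mouse whose gap to the nearest other mouse was larger, as a share of the group's range, than Dixon's 95% critical value. Chance flags about 1 in 20 groups, so about as many as 2 of 40 would be flagged anyway. Of the 6, 3 came from the low-connectivity mouse (CYFIP1 OE line 3 replicate 1), with Actb at 3316 CPM against 1627 to 2344 in the other 7 mice of its group, Actg1 at 344 CPM against 838 to 1215, and Dstn at 245 CPM against 70.7 to 111. In CYFIP1 OE line 1 replicate 2, a female of 77 days, Actg1 was 770 CPM against 1000 to 1155 and Tmsb10 was 63.5 CPM against 92.1 to 113. In WT line 1 replicate 8, a female of 59 days, Dstn was 127 CPM against 79.0 to 99.8.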

How the results depend on the processing

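The number of the 10 genes called for genotype, line, sex or the interaction, or with a genotype p under 0.005, stayed at 0 under all 77 recomputations, with DESeq2, other filters, scalings and covariates, and subsets of mice. Of the recomputed estimates of single genes, 351 kept their direction and 55 changed sign, all of them with no call before or after; the cause was not tested. Without TMM factors the median log2 fold change of all genes moved to -0.128 for genotype and -0.178 for the interaction, and relative to that shift the members' genotype estimates are read; those that turned were Actb -0.025, Cfl1 -0.048, Dstn -0.032 and Limk1 -0.10, and for line Pfn2 -0.019 and for sex Pfn1 0.036 and Dstn 0.006.

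The genotype estimates that turned otherwise were, with 5 surrogate variables, Actg1 0.049, Cfl1 -0.027 and Pfn2 0.033; with these and without the low-connectivity mouse, Actg1 0.055, Cfl1 -0.010, Pfn1 0.041 and Pfn2 0.038; without that mouse alone, Actg1 0.061, Pfn2 0.005 and Dstn -0.003; without the mice aged 77 days, Pfn1 0.004 and Limk1 -0.005; within name prefixes that hold both genotypes, Dstn -0.059 and Limk1 -0.14; with the name prefix as a block, Dstn 0 and Limk1 -0.043; in line 1 alone, Actb -0.10, Actg1 0.085, Pfn2 0.080 and Tmsb4x 0.020; and in line 3 alone, Cfl1 -0.010, Dstn -0.006 and Limk1 -0.18.

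The line estimates that turned were, with 5 surrogate variables, Actb -0.003, Cfl1 0.032 and Tmsb4x 0.041; with these and without the low-connectivity mouse, Actb -0.023, Cfl1 0.037 and Tmsb4x 0.061; without that mouse alone, Actg1 0.013 and Tmsb4x 0.031; in WT mice alone, Actb -0.044, Actg1 0.035, Cfl1 0.067 and Tmsb4x 0.11; within name prefixes that hold both genotypes, Pfn1 -0.037 and Tmsb10 -0.044; with age as a covariate, Tmsb10 -0.007; and with the reads of Gm9844 added, Tmsb10 -0.051, or -0.005 without the low-connectivity mouse as well. For sex they were, without the low-connectivity mouse, Actb -0.040 and Pfn1 0.009; within name prefixes that hold both genotypes, Actb -0.096 and Dstn 0.093; with 5 surrogate variables, Pfn1 0.10 and Pfn2 0.018, and Pfn2 0.029 when that mouse was left out too; and without the mice aged 77 days, Dstn 0.026.

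The fits without TMM factors, with surrogate variables but without the low-connectivity mouse, and with Gm9844 added were chosen after seeing the data. With the name prefix as a block the genotype estimates that moved most among those that kept their sign were Actb 0.25, Tmsb4x -0.27, Pfn2 -0.18, Actg1 -0.15 and Tmsb10 0.10. As described for Actb, estimates with this block come from prefixes that hold both genotypes, and so mostly from the same line. Depth limits Pfn1 (39 to 177 reads per mouse) and Limk1 (45 to 165) most, with counting errors of 11% and 9.8% against a spread of 28.8% and 25.8% between mice. No paired analysis was possible because the replicate numbers were given in accession order and mark no pairs of mice; the name prefix, used as a block above, joins several mice and pairs none.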
